A study of Rattus norvegicus with 14 samples.

Results

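The genes described are those of mitochondrial oxidative phosphorylation, the electron transport chain and the ATP synthase, measured in rat liver on 3 diets that differ in magnesium. Members were chosen by name: a probe set belonged when its single platform gene symbol began with Nduf, Uqcr, Atp5, Cox4, Cox5, Cox6, Cox7 or Cox8, or was Sdha, Sdhb, Sdhc, Sdhd, Cyc1 or Cycs. This gave 101 of the 8799 probe sets on the array and 55 of the 4736 genes with a symbol of their own. Another 7 probe sets whose annotation joined such a symbol with others, among them the only one naming Cycs, were not used. RNA came from the left lateral lobe of rat liver, about 5 µg of total RNA per target, on an Affymetrix oligonucleotide array. The 14 arrays were 4 labelled Mg++ deficient, 5 labelled MG++ supplemented and 5 labelled standard diet. The labels name no strain, age, sex, genotype, magnesium content or duration of feeding, and no animal behind an array, so p-values measure the spread between these samples, which may be technical.

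Oxidative phosphorylation takes electrons from NADH (complex I) and succinate (complex II), passes them through complex III and cytochrome c to oxygen at complex IV, and uses the proton gradient so formed to make ATP at complex V. Magnesium is the ion that ATP and ADP carry as a complex, and hepatocytes are rich in mitochondria. Each complex joins many nuclear-encoded subunits, and the genes counted here are all nuclear. The symbol rule also takes in a few genes that are not subunits of the complex they are named for: Ndufaf3 is an assembly factor of complex I, Cox7a2l helps complexes III and IV associate, Atp5if1 inhibits the ATP synthase, and Ndufa4 is known to associate with complex IV. Groups below follow the symbols.

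Promoters of nuclear genes of the respiratory chain are known for sites of NRF1 and of the ETS factor GABP. Of the 55 genes, 46 had a promoter in the RefSeq table (build GRCr8, 250 bases before to 50 after the start), all matched by gene ID. Atp5pd, Cox4i2, Cox6a1, Cox6c, Cox6c-ps1, Cyc1, Ndufa8, Ndufb9 and Uqcr11 had none there. On either strand, the NRF1 core (GCGC, any base, then TGCGC) was present in 6 of the 46 promoters (13%), against 4.71% of all 27457 promoters of that length. The GABP core CCGGAAG was present in 9 (19.6%), against 9.22%. The TATA box letters TATAAA were present in 2 (4.35%), those of Cox8b (at -39) and Ndufs6 (at -209, far from the start), against 14.3%. The median GC content was 55.8% for the members and 52.3% for all promoters. A match is a description of the letters, not a site in use. Shown here are 3 promoters of genes that recur in the results, chosen because they hold the motifs. Capitals mark matches of either core, which do not overlap one another. Cox4i1 lies at chr19:65630133-65630432, Ndufv3 at chr20:9613536-9613835 and Sdha at chr1:30764303-30764602, all on the plus strand of GRCr8.
Cox4i1: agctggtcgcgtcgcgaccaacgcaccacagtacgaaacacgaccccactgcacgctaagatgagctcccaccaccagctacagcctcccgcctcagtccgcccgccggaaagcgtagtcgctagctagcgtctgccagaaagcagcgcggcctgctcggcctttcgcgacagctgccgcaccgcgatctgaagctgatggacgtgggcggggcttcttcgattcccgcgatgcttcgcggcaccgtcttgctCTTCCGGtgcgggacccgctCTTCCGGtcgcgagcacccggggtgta
Ndufv3: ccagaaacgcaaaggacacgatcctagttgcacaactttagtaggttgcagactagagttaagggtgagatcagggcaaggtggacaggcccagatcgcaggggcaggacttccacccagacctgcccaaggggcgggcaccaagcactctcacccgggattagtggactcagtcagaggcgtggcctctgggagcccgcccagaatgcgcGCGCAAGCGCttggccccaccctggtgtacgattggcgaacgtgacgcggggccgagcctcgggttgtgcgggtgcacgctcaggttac
Sdha: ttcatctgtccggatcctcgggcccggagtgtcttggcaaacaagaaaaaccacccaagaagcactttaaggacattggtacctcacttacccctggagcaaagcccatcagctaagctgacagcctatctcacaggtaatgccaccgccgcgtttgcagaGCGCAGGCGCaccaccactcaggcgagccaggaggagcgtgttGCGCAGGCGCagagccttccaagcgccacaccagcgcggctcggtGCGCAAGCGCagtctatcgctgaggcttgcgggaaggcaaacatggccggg
Cox4i1, the widespread form of a regulatory subunit of complex IV, held 2 GABP cores that begin 3 and 23 bases downstream of the start base. Ndufv3, an accessory subunit of complex I, held 1 NRF1 core at position -39, counting the start base as 0. Sdha, the flavoprotein of complex II, held 3 NRF1 cores.

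Liver identity and signal were checked first. All 10 hepatocyte markers on the array were tested, with log2 signals from 12.88 to 13.18 over the 14 arrays for albumin (Alb), among the steadiest, and from 8.51 to 12.39 for Cyp2c11, the most variable. Of the 10, 2 were higher on the deficient than the standard diet and 8 lower. On the supplemented diet 4 were higher than on the standard diet, and 6 were higher on the deficient than the supplemented diet. In each comparison limma called 0 of them. The arrays shared a trimmed mean signal of 150.3 units, but their medians differed by up to 1.91 times, and signals were quantile normalised, floored at 3.93 units and put on the log2 scale. Markers known from other tissues also gave signal, with 5 of 8 for pancreas and 2 of 4 for fat tested. Mean log2 signals were 7.28 for Ins1 and 8.33 for Lep, while Prss1 and Fabp4 were at the floor on all 14 arrays. The part of other tissue in the samples was not tested. RNA quality, judged by the Gapdh control, differed between diets. The ratio of 3' to 5' signal of the Gapdh control transcript is higher where RNA is broken or copied short. Its log2 averaged 1.84 ± 0.65 (SD, n = 4) over deficient, 0.71 ± 0.49 (SD, n = 5) over supplemented and 1.64 ± 0.61 (SD, n = 5) over standard arrays. The supplemented arrays were below the standard arrays by 0.93 (two-sided exact permutation p = 0.0159, adjusted 0.0476 over 6 comparisons), and the deficient arrays were above the supplemented arrays by 1.13 (exact permutation p = 0.0159, adjusted 0.0476). The deficient and standard arrays differed by 0.21 (exact permutation p = 0.595). The beta-actin ratio was higher on deficient than on supplemented arrays by 0.89 (exact permutation p = 0.0476, adjusted 0.0952). Its difference was -0.56 for supplemented against standard arrays (exact permutation p = 0.103, adjusted 0.155). For deficient against standard arrays it was 0.33 (exact permutation p = 0.516, adjusted 0.595). Supplemented array 5 had the lowest Gapdh ratio, -0.12, and standard array 10 and deficient array 13 the highest, 2.65 and 2.68. Results are therefore also given with the ratio as a covariate and without those 3 arrays.

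Of the 101 member probe sets, 89 passed the filter on dim signals (a 14-array mean above 3.83 on the log2 scale, or 14.3 units), and they covered 52 genes: 26 of complex I, Sdha for complex II, 4 of complex III, 11 of complex IV and 10 of complex V. The genes with no probe set past the filter were Ndufs1, a core iron-sulfur subunit of complex I, Cox8b, the heart and muscle form of a small subunit of complex IV, and the pseudogene Cox6c-ps1. Each gene is given by its brightest probe set. The members varied little. Their median within-diet SD was 0.26 on the log2 scale, with the lowest, 0.12, at Uqcrfs1 and the highest, 0.72, at Ndufb6, against 0.37 over the 3073 genes tested. The members were brighter than most genes, and among genes with a mean between 8.53 and 10.03 the median SD was 0.27 for 26 members and 0.31 for all 351 genes.

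No oxidative phosphorylation gene changed between diets past the threshold in any comparison. With limma and a Benjamini-Hochberg adjusted p under 0.05, 0 of 52 genes passed for deficient against standard, 0 for supplemented against standard and 0 for deficient against supplemented, and 0 passed the F-test over the diets. Over the 5133 probe sets tested the same rule called 0%, 0% and 0.0195% in these comparisons and 0.0195% by the F-test, and over the 3073 genes 0%, 0% and 0.0325%. At an unadjusted p under 0.05 the members numbered 0, 8 and 6 in the same order of comparisons, and 6 by the F-test, where 8.14% of all genes passed. Ndufab1 was first in limma's F-test, with a Benjamini-Hochberg adjusted p of 0.471. The intervals limit how large a difference could have gone unseen. The 95% interval of the difference lay within a 2-fold change either way for 50 of 52 members between the deficient and standard diets, for 44 between the supplemented and standard diets, and for 44 between the deficient and supplemented diets. Over all genes those shares were 77.4%, 76% and 68.4%. The members whose interval reached a 2-fold change included Ndufb6 in all 3 comparisons, and Ndufs4, Ndufb9, Uqcrc2, Cox4i2 and Cyc1 in both comparisons with the supplemented diet.

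**Figure D1:**
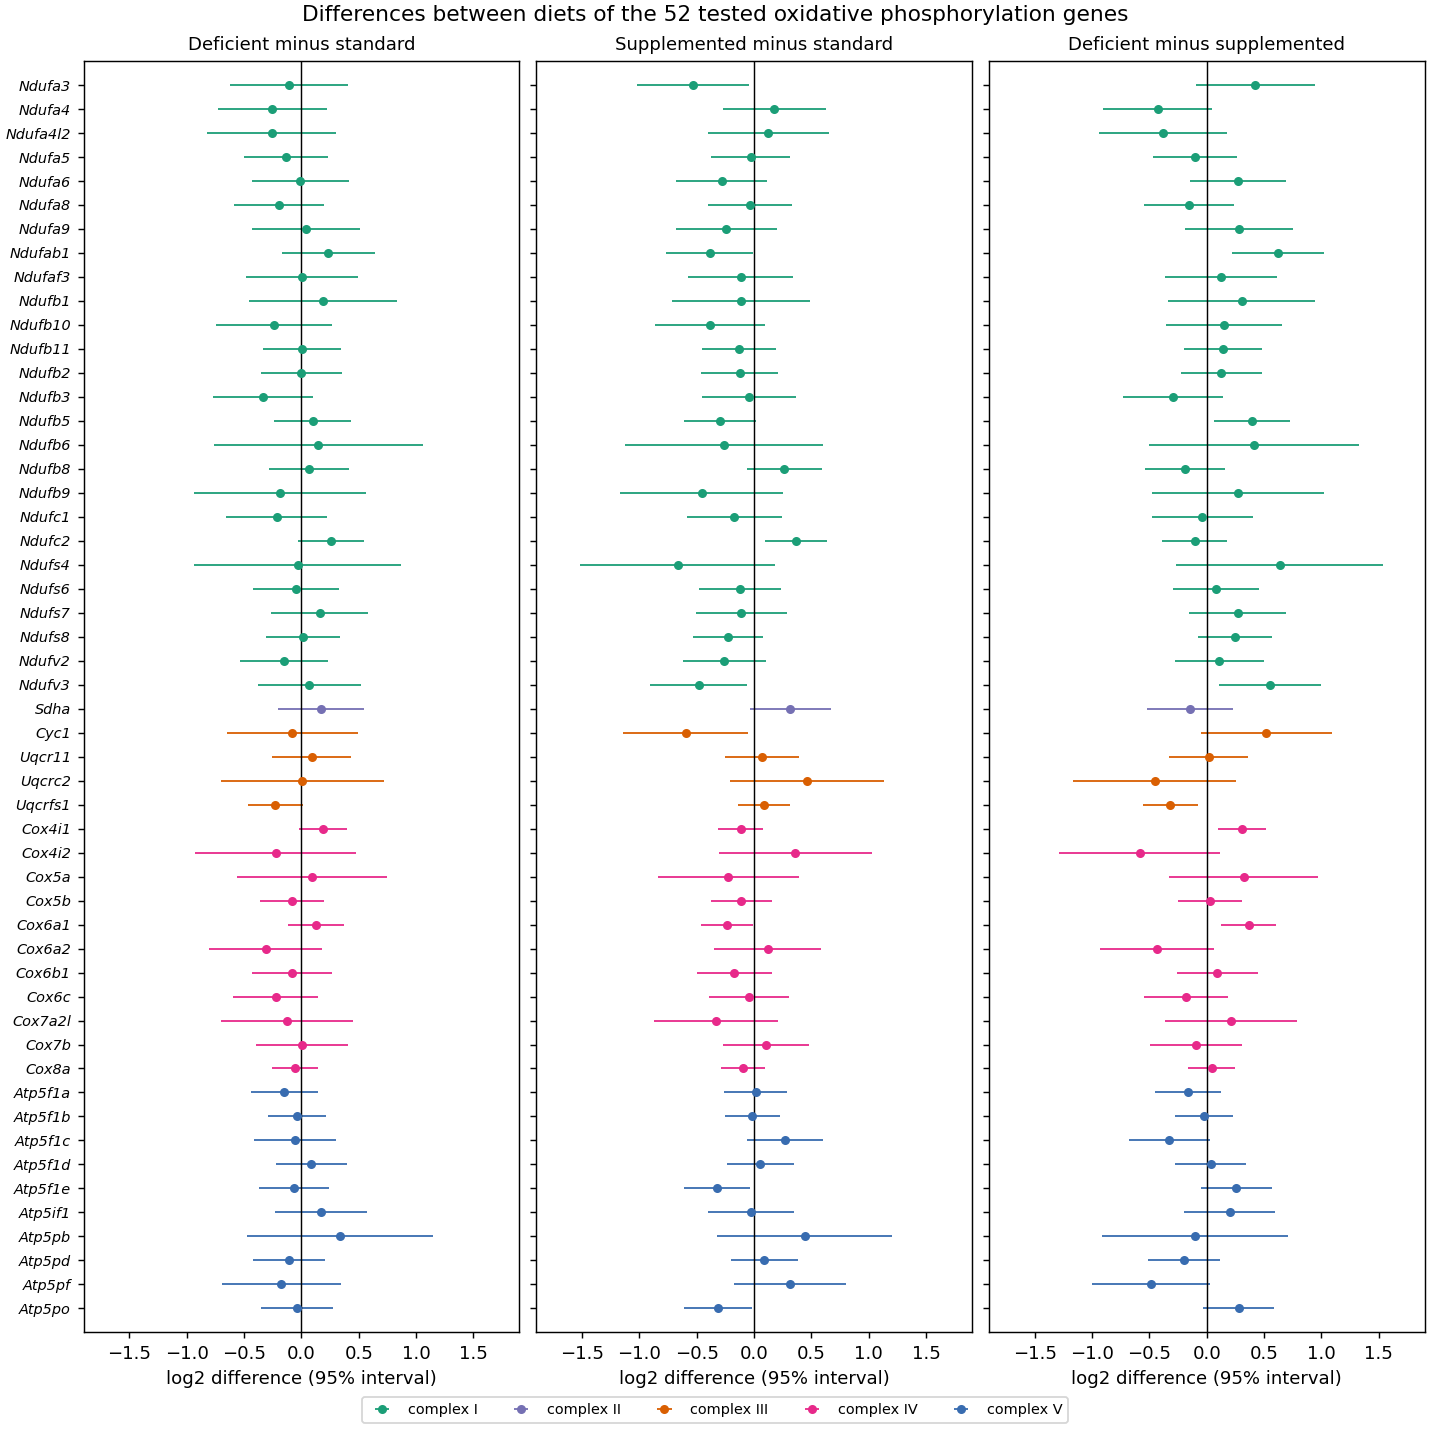
Log2 differences between diets of the 52 tested oxidative phosphorylation genes (rows, coloured by complex), with 95% intervals as bars, in 3 panels. Medians were -0.04 (deficient minus standard, 0.04 with arrays centred on their median), -0.11 (supplemented minus standard) and 0.09 (deficient minus supplemented), and 0 genes passed the adjusted threshold in any panel.

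The deficient diet was set against the standard diet to ask what a diet short of magnesium does to these transcripts. The 52 genes were spread evenly about 0, with 23 higher and 29 lower and a median difference of -0.04 on the log2 scale. Over all 3073 genes 52.8% were higher and the median was 0.01. With arrays centred on their median the members' median turned to 0.04, with 29 of 52 higher, beside a median of 0.08 for all genes. Without deficient array 14 it was 0.03. Differences ran from -0.34 (Ndufb3) to 0.34 (Atp5pb). For Atp5pb standard array 10 read 7.42, with the other standard arrays from 9.46 to 9.86 and the deficient arrays from 9.01 to 9.94. In complex I 13 of 26 genes were higher (median -0.005), in complex III 2 of 4 (median -0.03), in complex IV 4 of 11 (median -0.08) and in complex V 3 of 10 (median -0.05). At an unadjusted p under 0.05 there were 0 members, against 3.19% of all genes (1.5% higher and 1.69% lower). The count was 2 without deficient array 14, 2 with array weights, 2 without the 3 arrays that stood apart, 3 with no filter, and 1 without supplemented array 5, standard array 8 or standard array 10.

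Uqcrfs1, the Rieske iron-sulfur protein of complex III, had the smallest p of this comparison. It read 10.02, 10.11, 10.17 and 10.32 on the deficient arrays, against 10.49, 10.43, 10.31, 10.44 and 10.24 on the standard arrays (log2 signal). Only deficient array 14 reached into the standard range, and the difference was -0.23 ± 0.11 (SE; limma adjusted p = 0.999), or -0.13 with arrays centred on their median. Cox4i1 read 12.74, 12.53, 12.71 and 12.32 on the deficient arrays, against 12.36, 12.23, 12.48, 12.48 and 12.36 on the standard arrays. Deficient arrays 11, 12 and 13 were above all standard arrays and array 14 was among them. The difference was 0.19 ± 0.10 (SE; limma adjusted p = 0.999), or 0.08 with values as deposited. Its other 2 probe sets had the opposite sign, at -0.05 and -0.16.

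Ndufc2, an accessory subunit in the membrane arm of complex I, was the only member whose arrays did not overlap between these diets, where 1.76% of all genes did not overlap (0.911% higher and 0.846% lower). It read 8.86, 8.82, 8.92 and 8.89 on the deficient arrays, against 8.37, 8.67, 8.81, 8.71 and 8.51 on the standard arrays. The lowest deficient array was just above the highest standard array, and the difference of 0.26 ± 0.13 (SE) did not pass (limma adjusted p = 0.999). Ndufb3, another accessory subunit, read 8.17, 9.17, 8.89 and 9.03 on the deficient arrays, against 9.34, 9.25, 9.30, 8.89 and 8.98 on the standard arrays. Its difference of -0.34 ± 0.20 (SE; limma adjusted p = 0.999) was -0.12 without deficient array 11, the lowest. Cox6c, a small subunit of complex IV, read 6.53, 6.98, 7.09 and 6.74 on the deficient arrays, against 7.05, 6.94, 7.28, 7.22 and 6.80 on the standard arrays. The groups overlapped, and the difference of -0.22 ± 0.17 (SE; limma adjusted p = 0.999) was -0.12 without deficient array 11 and -0.12 with arrays centred on their median. Its other tested probe set had the opposite sign, at 0.68 ± 0.37 (SE; limma adjusted p = 0.999). Atp5f1a, the alpha subunit of the ATP synthase, was at 9.48 ± 0.04 (SD, n = 4) over deficient and 9.63 ± 0.14 (SD, n = 5) over standard arrays, a difference of -0.15 ± 0.14 (SE), or -0.10 with arrays centred on their median. Sdha was at 8.88 ± 0.08 (SD, n = 4) over deficient and 8.71 ± 0.33 (SD, n = 5) over standard arrays, a difference of 0.17 ± 0.18 (SE), which was 0.05 without standard array 10 and 0.07 without the 3 arrays that stood apart. Neither passed (limma adjusted p = 0.999 for both).

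The supplemented diet was set against the standard diet to ask what extra magnesium does. Of the 52 genes 35 were lower and 17 higher, with a median difference of -0.11, while 45.1% of all genes were higher and their median was -0.03. Most of the lower genes were of complex I: 22 of its 26 genes were lower on the supplemented diet, with a median of -0.15. The exceptions were Ndufc2, Ndufb8, Ndufa4 and Ndufa4l2. The other groups were mixed, with 8 of 11 genes of complex IV lower (median -0.11), 1 of 4 of complex III lower (median 0.08) and 4 of 10 of complex V lower (median 0.04). None of these genes passed limma's adjusted threshold. With the Gapdh ratio as a covariate 16 of 26 complex I genes were lower, without the 3 arrays that stood apart 18 were, and with any 1 array left out between 19 and 22. With arrays centred on their median, where the median of all genes was -0.13, the members' median was -0.28.

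At an unadjusted p under 0.05 there were 8 members, 1 higher and 7 lower, beside 8.14% of all genes (3.29% higher and 4.85% lower). That count rested on single arrays: it was 1 without supplemented array 1, 1 without standard array 10, 4 without supplemented array 5 and 5 without supplemented array 4. With the Gapdh ratio as a covariate it was 0, beside 2.73% of all genes, and with the beta-actin ratio it was 1. Ndufc2 had the smallest p. It read 9.14, 8.89, 8.89, 8.91 and 9.06 on the supplemented arrays, all above the standard arrays given before, where 1.89% of all genes did not overlap between these diets (0.976% higher and 0.911% lower). The difference was 0.36 ± 0.13 (SE; limma adjusted p = 0.492), or 0.30 with the Gapdh ratio as a covariate and 0.20 with arrays centred on their median. This comparison and the previous one share the standard arrays.

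The 7 lower members were subunits of 4 complexes. Ndufv3 read 9.84, 10.46, 10.08, 10.04 and 9.73 on the supplemented arrays, against 10.50, 10.34, 10.51, 10.32 and 10.91 on the standard arrays. Of the supplemented arrays only array 2 reached the standard range, and the difference was -0.48 ± 0.20 (SE; limma adjusted p = 0.510), or -0.11 with the Gapdh ratio as a covariate and -0.31 without the 3 arrays that stood apart. Ndufa3, an accessory subunit of complex I, read 9.47, 9.83, 10.32, 9.40 and 9.52 on the supplemented arrays, against 10.01, 10.53, 10.43, 9.68 and 10.55 on the standard arrays. Supplemented arrays 2 and 3 were among the standard arrays and the other 3 lay below all of them. The difference was -0.53 ± 0.23 (SE; limma adjusted p = 0.517), or -0.28 with the Gapdh ratio.

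Cyc1, cytochrome c1 of complex III, read 8.59, 9.20, 9.16, 8.92 and 7.94 on the supplemented arrays, against 9.23, 9.28, 8.83, 9.82 and 9.65 on the standard arrays. The lowest value was on supplemented array 5, and the difference of -0.60 ± 0.25 (SE; limma adjusted p = 0.517) was -0.40 without that array, -0.32 without the 3 arrays that stood apart and -0.25 with the Gapdh ratio as a covariate. Atp5f1e, the epsilon subunit of the ATP synthase, read 10.78, 11.05, 10.69, 10.83 and 11.12 on the supplemented arrays, against 11.02, 11.17, 11.30, 11.04 and 11.54 on the standard arrays. Supplemented arrays 2 and 5 overlapped the standard arrays, and the difference was -0.32 ± 0.14 (SE; limma adjusted p = 0.517), or -0.15 with the Gapdh ratio. Atp5po, which links the catalytic head of the ATP synthase to its stalk, stayed between 11.11 and 11.23 on the 5 supplemented arrays, against 11.33, 11.16, 11.63, 11.48 and 11.77 on the standard arrays. Standard array 7 was among the supplemented arrays. The difference was -0.31 ± 0.14 (SE; limma adjusted p = 0.528), or -0.07 with the Gapdh ratio and -0.16 with the beta-actin ratio.

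Cox6a1, the liver form of a subunit of complex IV, read 11.01, 11.01, 11.02, 11.20 and 11.30 on the supplemented arrays, against 11.37, 11.12, 11.21, 11.50 and 11.52 on the standard arrays. The ranges overlapped, and the difference was -0.24 ± 0.11 (SE; limma adjusted p = 0.547). Ndufab1, the mitochondrial acyl carrier protein and a subunit of complex I, was at 9.30 ± 0.32 (SD, n = 5) on the supplemented and 9.69 ± 0.26 (SD, n = 5) on the standard diet, a difference of -0.39 ± 0.18 (SE; limma adjusted p = 0.547). Sdha was at 9.02 ± 0.21 (SD, n = 5) on the supplemented and 8.71 ± 0.33 (SD, n = 5) on the standard diet. Its difference of 0.32 ± 0.17 (SE; limma adjusted p = 0.584) was 0.20 without standard array 10, 0.12 with the Gapdh ratio as a covariate, 0.16 without the 3 arrays that stood apart and 0.14 with arrays centred on their median.

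**Figure D2:**
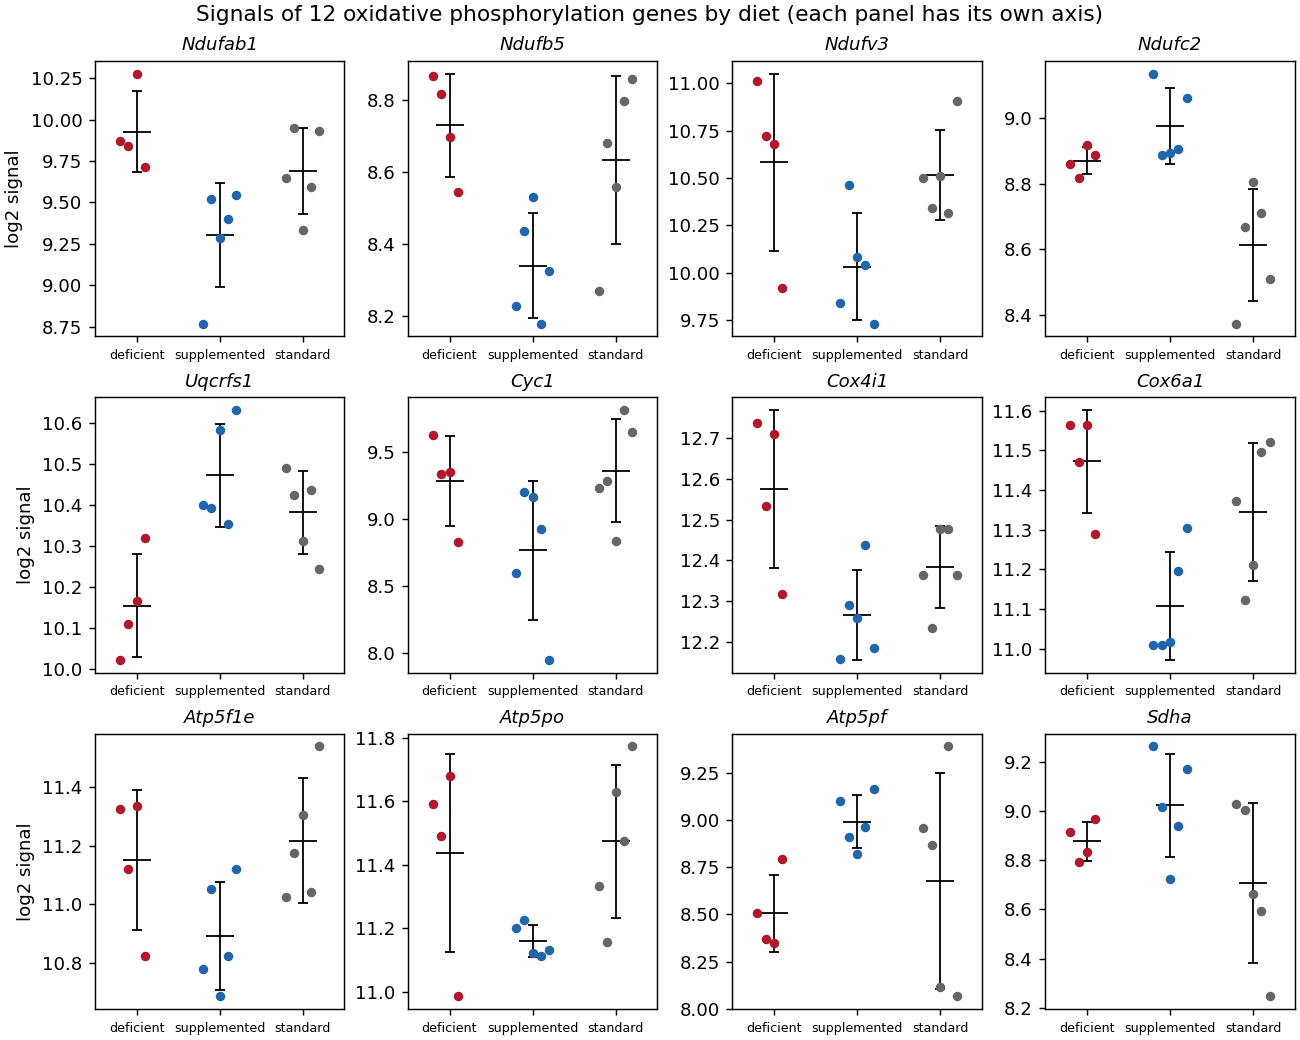
Log2 signals of 12 named genes, 1 panel per gene with its own axis. Points are arrays of the deficient (n = 4), supplemented (n = 5) and standard (n = 5) diets, and bars are the mean ± SD. Ndufab1, Ndufb5, Uqcrfs1 and Atp5pf do not overlap between the deficient and supplemented diets, and the 5 standard arrays of Ndufc2 lie below all other arrays.

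The deficient diet was last set against the supplemented diet, the widest contrast in magnesium. Of the 52 genes 31 were higher on the deficient diet and 21 lower, with a median difference of 0.09, beside 56.3% of all genes higher and a median of 0.05. In complex I 18 of 26 genes were higher (median 0.15), in complex III 2 of 4 (median -0.15), in complex IV 7 of 11 (median 0.04) and in complex V 4 of 10 (median -0.06). Without supplemented array 5 the members' median was 0.03. With the Gapdh ratio as a covariate 13 of 26 complex I genes were higher. With arrays centred on their median the median was 0.21 for all genes and 0.34 for the members, of which 43 were higher. Over all 89 tested member probe sets, rather than 1 per gene, the median was 0.01.

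At an unadjusted p under 0.05 there were 6 members, 5 higher and 1 lower on the deficient diet, beside 12.3% of all genes (7.35% higher and 4.95% lower). The count was 15 without deficient array 14, 11 with array weights, 11 with arrays centred on their median, 1 with the Gapdh ratio as a covariate and 0 with the beta-actin ratio. The arrays did not overlap for 4 members, Ndufab1, Ndufb5, Uqcrfs1 and Atp5pf, where 4.78% of all genes did not overlap (3.22% higher and 1.56% lower). Ndufab1 had the smallest p. It read 9.87, 9.84, 10.28 and 9.71 on the deficient arrays, against 8.77, 9.52, 9.29, 9.40 and 9.54 on the supplemented arrays. Every deficient array was above every supplemented array, and the lowest supplemented value was on array 1. The difference was 0.62 ± 0.19 (SE), or 1.54-fold, with a 95% interval from 0.22 to 1.02 (limma adjusted p = 0.264), and it was 0.44 with the Gapdh ratio and 0.41 with the beta-actin ratio as a covariate.

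Both complex IV genes that stood out were bright. Cox6a1 read 11.56, 11.47, 11.56 and 11.29 on the deficient arrays, and of the supplemented arrays given before only array 5 reached the lowest of these. The difference was 0.36 ± 0.11 (SE; limma adjusted p = 0.264). Cox4i1 read 12.16, 12.29, 12.26, 12.44 and 12.19 on the supplemented arrays, and of the deficient arrays given before only array 14 was among them. The difference was 0.31 ± 0.10 (SE; limma adjusted p = 0.264), or 0.18 with the Gapdh ratio as a covariate. Ndufv3 read 11.01, 10.72, 10.68 and 9.92 on the deficient arrays, of which array 14 lay among the supplemented arrays. The difference was 0.55 ± 0.21 (SE; limma adjusted p = 0.328), but 0.09 with the Gapdh ratio, 0.27 with the beta-actin ratio and 0.77 without deficient array 14. Ndufb5, an accessory subunit of complex I, read 8.87, 8.82, 8.70 and 8.54 on the deficient arrays, against 8.23, 8.44, 8.53, 8.18 and 8.33 on the supplemented arrays. The groups were just apart, by 0.39 ± 0.16 (SE; limma adjusted p = 0.335).

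The member that went the other way was Uqcrfs1, at -0.32 ± 0.11 (SE; limma adjusted p = 0.306), although it turned to 0.01 with arrays centred on their median. It read 10.40, 10.39, 10.58, 10.35 and 10.63 on the supplemented arrays, each above the deficient arrays given before. With the Gapdh ratio as a covariate the difference was -0.16. Atp5pf, coupling factor 6 of the ATP synthase, read 8.51, 8.37, 8.35 and 8.80 on the deficient arrays, against 9.10, 8.91, 8.82, 8.96 and 9.16 on the supplemented arrays. The groups did not overlap, and the difference of -0.49 ± 0.24 (SE; limma adjusted p = 0.417) was 0.004 with the Gapdh ratio, -0.09 with the beta-actin ratio and -0.24 with arrays centred on their median. Its standard arrays spread over both groups, from 8.07 to 9.39. The other tested probe set of Atp5pf, nearly as bright with a mean of 8.66, differed by only -0.07 ± 0.18 (SE). On that probe set the deficient and supplemented arrays overlapped. Sdha differed by -0.15 ± 0.18 (SE; limma adjusted p = 0.745), which turned to 0.09 with the Gapdh ratio, 0.003 with the beta-actin ratio and 0.13 with arrays centred on their median.

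Arrays of the same diet differed in the level of each complex, and the part of RNA quality in this was not tested. The median deviation of the complex I genes from their 14-array means was 0.29 on standard array 10, the array with the second highest Gapdh ratio, and 0.25 on deficient array 12. It was lowest on supplemented arrays 1 and 4, at -0.19 each, and supplemented array 5, at -0.15. Deficient array 13, with the highest ratio, was at 0.04. Within the deficient diet array 14, with the lowest Gapdh ratio of the 4, was at -0.14 for complex I and -0.23 for complex IV, and 14 of its 52 genes were above their own mean, against 30 to 37 on the other deficient arrays. Complex V followed another order: supplemented array 5 was highest at 0.35.

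**Figure D3:**
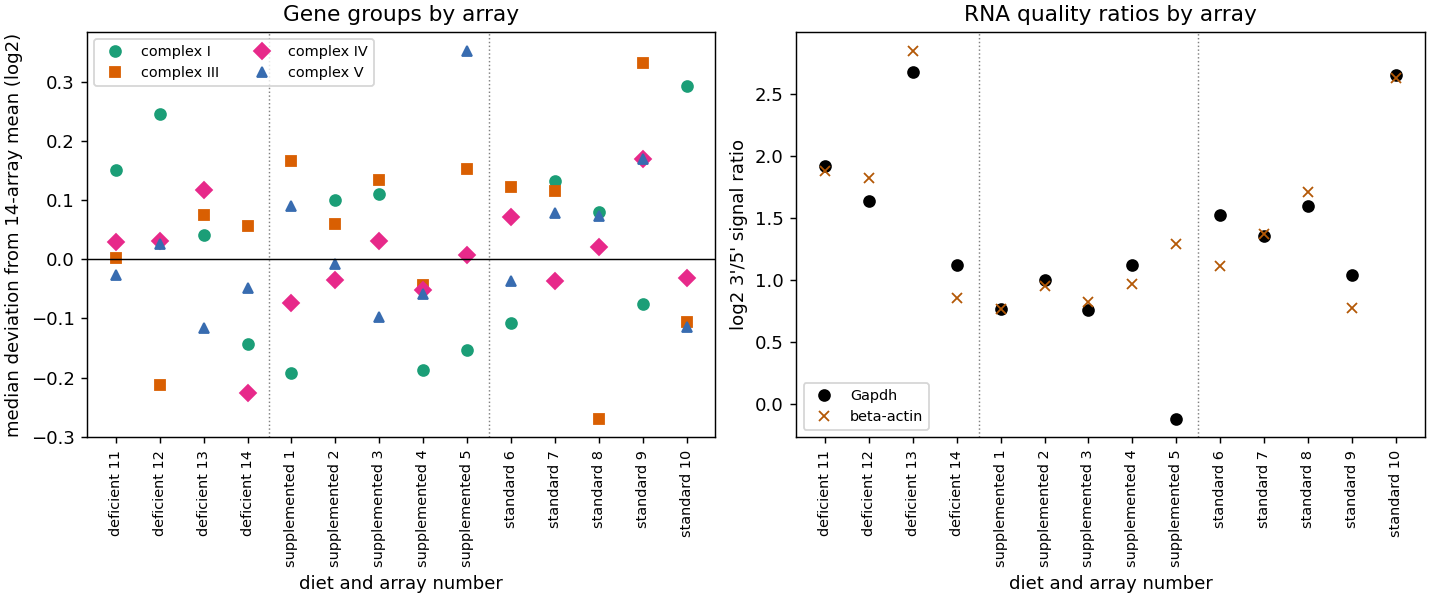
Left, the median deviation of the genes of complexes I, III, IV and V from their 14-array means (log2) on each array. Right, the log2 3'/5' ratios of the Gapdh and beta-actin control probe sets on the same arrays, in the order deficient, supplemented, standard. Complex I was highest on standard array 10 (0.29) and complex V on supplemented array 5 (0.35).

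Probe sets of the same gene often disagreed. Of the 52 genes 26 had 2 or more tested probe sets, and all of a gene's probe sets had 1 sign for 14 genes between the deficient and standard diets, for 12 between the supplemented and standard diets, and for 9 between the deficient and supplemented diets. All 6 members under an unadjusted p of 0.05 in the last comparison had several probe sets. For Ndufab1, Ndufv3 and Uqcrfs1 they shared a sign, and for Cox4i1, Cox6a1 and Ndufb5 they did not. The other tested probe set of Ndufab1 differed by 0.01, against 0.62 for the brightest. For Cox6a1 the others were at -0.16 and -0.27, for Cox4i1 at 0.18 and -0.17, and for Ndufb5 at -0.23. Ndufv3 was at 0.66 on its other probe set, and Uqcrfs1 at -0.66 and -0.04. In the supplemented against standard comparison 5 of the 8 had several, of which Atp5f1e, Ndufab1 and Ndufv3 had 1 sign and Atp5po and Cox6a1 had both. The widest disagreement between the deficient and supplemented diets was in Ndufs8, a core iron-sulfur subunit of complex I, whose 4 tested probe sets ran from -0.68 to 0.30. The other genes with both signs there were Atp5f1d, Atp5if1, Atp5po, Cox5b, Cox6a2, Cox6b1, Cox6c, Cox7a2l, Cox8a, Ndufa6, Ndufb6, Ndufb8 and Ndufs4. Genes with both signs in another comparison were, besides several of these, Ndufa4l2, Uqcr11 and Uqcrfs1 for supplemented against standard and Atp5f1e, Ndufab1 and Ndufaf3 for deficient against standard. The annotation gives no probe positions, so whether such probe sets read different ends of a transcript was not tested.

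**Figure D4:**
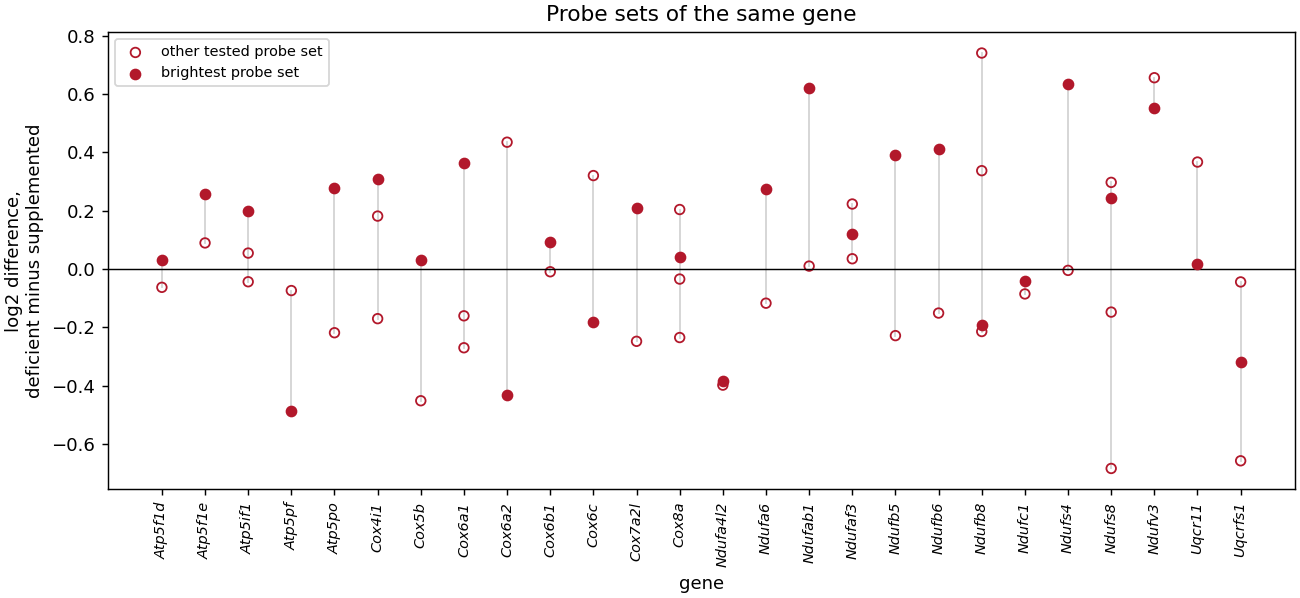
Log2 difference, deficient minus supplemented, of every tested probe set of the 26 genes with 2 or more. Filled points are the brightest probe set of a gene, open points the others, and grey lines join them. The probe sets fall on both sides of 0 for 17 genes.

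The forms of complex IV subunits known from muscle and heart, and their widespread or liver partners, were looked at by level. Cox6a2, the muscle partner of Cox6a1, had 1 probe set at the floor on all 14 arrays, 1 with a mean of 3.93 and 1 with a mean of 6.27 on the log2 scale. The last read 6.23, 6.12, 5.84 and 5.83 on the deficient arrays, 6.33, 6.23, 6.21, 6.17 and 7.25 on the supplemented arrays and 6.83, 6.18, 6.29, 6.13 and 6.16 on the standard arrays. Its deficient minus standard difference was -0.31 ± 0.23 (SE; limma adjusted p = 0.999), or -0.18 without standard array 6. Of the 13 muscle markers on the array 3 passed the dim filter, Myh1, Myl1 and Myl2. Skeletal actin (Acta1) and the fast troponin gene Tnni2 were at the floor on all 14 arrays. The summed muscle markers lay between 145 and 257 units on the deficient, 161 and 250 on the supplemented and 170 and 230 on the standard arrays. None of the 3 tested markers passed in any comparison. The part of other tissue in the Cox6a2 signal was not tested. Cox8b, the heart form whose partner in liver is Cox8a, was at the floor on all 14 arrays with 1 of its probe sets and on 4 arrays with the other. The brightest of the 4 tested Cox8a probe sets was at 11.84 ± 0.10 (SD, n = 4) on the deficient, 11.80 ± 0.07 (SD, n = 5) on the supplemented and 11.90 ± 0.16 (SD, n = 5) on the standard diet. Its deficient minus supplemented difference was 0.04, with a 95% interval from -0.16 to 0.25. The other 3 probe sets were at 0.20, -0.23 and -0.03, with SDs on the supplemented diet of 0.52, 0.30 and 0.43. Cox4i2, the partner of Cox4i1 that is known from lung, read 7.13, 8.23, 7.06 and 7.15 on the deficient arrays, 7.54, 7.61, 7.65, 7.97 and 9.11 on the supplemented arrays and 7.94, 7.09, 7.56, 7.85 and 7.65 on the standard arrays. The groups overlapped. Cox7a1 and Cox7a2 had no probe set with a symbol of its own.

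Atp5if1, which blocks the reverse action of the ATP synthase, was at 6.75 ± 0.35 (SD, n = 4) on the deficient, 6.55 ± 0.20 (SD, n = 5) on the supplemented and 6.58 ± 0.18 (SD, n = 5) on the standard diet. Its differences from the standard diet were 0.17 ± 0.19 (SE) for the deficient and -0.03 ± 0.18 (SE) for the supplemented diet (limma adjusted p = 0.999 and 0.977). Its 3 tested probe sets carry the Affymetrix suffix for families of like sequence, as do both tested sets of Ndufa4l2, so that signal from near-identical genes cannot be told apart there.

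The processes around the chain were given by lists of their genes, and limma called 0 genes of any of them in any comparison. Of the citric acid cycle and pyruvate dehydrogenase list 10 genes were tested. On the deficient against the standard diet 8 were lower (median -0.13), where 52.8% of all genes were higher. On the supplemented against the standard diet 6 were higher (median 0.06), beside 45.1% of all genes. Between the deficient and supplemented diets 4 were higher on the deficient diet (median -0.21), beside 56.3% of all genes. The gene with the smallest p for deficient against standard was Pdhb, a subunit of pyruvate dehydrogenase, at -0.33 ± 0.24 (SE; limma adjusted p = 0.999). It was at -0.19 without deficient array 14 and -0.18 without the 3 arrays that stood apart. Cs, citrate synthase, was at 0.53 ± 0.31 (SE; limma adjusted p = 0.634) for supplemented against standard and -0.75 ± 0.33 (SE; limma adjusted p = 0.373) for deficient against supplemented. With the Gapdh ratio as a covariate these turned to -0.11 and 0.04, and without deficient array 13 the second was -0.44, while without standard array 10 the first was 0.35. Among genes that feed electrons into the chain from fatty acids and other fuels 9 of 11 were lower on the deficient than on the standard diet (median -0.14). Of the 11, 7 were lower for supplemented against standard (median -0.05) and 8 for deficient against supplemented (median -0.07). Acadm, medium-chain acyl-CoA dehydrogenase, was at -0.38 ± 0.18 (SE; limma adjusted p = 0.999) for deficient against standard. Chdh, choline dehydrogenase, was at 0.50 ± 0.22 (SE; limma adjusted p = 0.517) for supplemented against standard and -0.72 ± 0.23 (SE; limma adjusted p = 0.264) for deficient against supplemented. These were 0.24 and -0.40 with the Gapdh ratio as a covariate.

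Of the carriers and pores of the mitochondrial membranes 11 were tested, with 8 lower on deficient and 8 lower on supplemented than on standard arrays. Between the deficient and supplemented diets 6 of the 11 were higher on the deficient diet. Vdac1, the main pore of the outer membrane, was at 0.92 ± 0.38 (SE; limma adjusted p = 0.516) for supplemented against standard and -1.17 ± 0.40 (SE; limma adjusted p = 0.297) for deficient against supplemented, or 0.19 and -0.28 with the Gapdh ratio as a covariate. Ckmt1, a mitochondrial creatine kinase, was at -0.60 ± 0.37 (SE; limma adjusted p = 0.999) for deficient against standard, but at -0.24 without deficient array 13, -0.39 without standard array 6 and -0.26 without the 3 arrays that stood apart. Of the transcription regulators 6 were tested, and all 6 were lower on supplemented than on standard arrays, with a median of -0.34. The smallest p was that of Ppara, the fatty acid receptor, at -0.69 ± 0.28 (SE; limma adjusted p = 0.510). Its difference was -0.38 on the log2 scale after adding 16 units and -0.94 with the Gapdh ratio as a covariate. Between the deficient and supplemented diets 5 of the 6 were higher (median 0.47), and Thra, a thyroid hormone receptor, was at 0.52 ± 0.26 (SE; limma adjusted p = 0.417), or 0.19 with the Gapdh ratio and 0.26 with the beta-actin ratio as a covariate and 0.31 with values as deposited. For deficient against standard 3 of 6 were higher and Nfe2l2 had the smallest p, at -0.27 ± 0.28 (SE; limma adjusted p = 0.999). It was at -0.05 without standard array 7, -0.18 without standard array 9, -0.17 without deficient array 13 and -0.44 without standard array 8. Of the assembly and chaperone list only Hspd1, Hspe1 and Hspa9 were measured. Hspa9, a mitochondrial chaperone, was at -0.53 ± 0.25 (SE; limma adjusted p = 0.383) for deficient against supplemented, or -0.24 with the Gapdh ratio as a covariate and -0.28 with arrays centred on their median, and at -0.43 ± 0.25 (SE; limma adjusted p = 0.999) for deficient against standard. Hspd1 was at -0.22 ± 0.21 (SE; limma adjusted p = 0.766) for supplemented against standard and turned to 0.16 with the Gapdh ratio as a covariate.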

How the data were processed

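Liver RNA of 14 rat samples was measured on Affymetrix arrays, with about 5 µg of total RNA per target per the labels. The deposited table holds intensity values (probe set signals, linear scale), and the trimmed means computed from it are nearly equal on every array (150.3 units, top and bottom 2% trimmed). Software and settings were not given in the sources used here, and no detection calls were used. Diet and array number came from the sample titles.

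After leaving out 59 control probe sets, signals were quantile normalised on the log2 scale, floored at the pooled 20th percentile (3.93 units) and kept above the pooled 40th percentile of log2 values. Diets were compared with limma 3.58.1 in R 4.3.3 (eBayes with trend, 1 model of 3 diets, Benjamini-Hochberg over 5133 probe sets, two-sided). The procedure was tested on simulated data. The brightest probe set stood for each gene. Gene symbols came from the platform annotation, and those of all 101 member probe sets were in the current RefSeq table. The number of arrays limits the precision.

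The members and lists were chosen with earlier results of these data known. Named genes are the 6 members with the smallest p in each comparison, the smallest p of each complex and of each companion list, muscle-type subunits with their partners, Atp5if1, and genes whose probe sets differ in sign. Further members under an unadjusted p of 0.05, those at the ends of a range, those with wide intervals or no tested probe set, and Ndufs8, which had the widest disagreement, were chosen after their values were seen. Alternatives changed the scaling, floor (to the 10th percentile, or log2 after adding 16), filter (none, or the 60th percentile), spread model, samples and RNA quality covariates. For the list, but not for single genes, they also changed the probe set.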

Additional observations from a re-analysis of the deposited data

Results flagged for a closer look

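The screen for a lone extreme array covered 20 named members, and others, such as Atp5pb and Ndufs4, were not examined. The 69 groups of 4 or 5 arrays examined were more than the 3 diets of these members give. Of the 69 groups 5 stood out, all in signals of members, where chance flags about 1 in 20. Supplemented array 5 gave 3 of them. Its Cox6a2 log2 signal was 7.25, with the next highest supplemented array at 6.33. Its Cox4i2 signal was 9.11, with the next highest at 7.97. Its Cox6c signal was 6.68, below the next lowest at 7.05. That array also had the lowest Gapdh 3'/5' ratio, while its log2 beta-actin ratio, 1.29, was the highest of the supplemented arrays. Its deposited median, 34.4 units, was the highest of all arrays. On the standard diet array 6 read 6.83 for Cox6a2, with the next highest at 6.29. On the deficient diet array 12 read 8.23 for Cox4i2, with the next highest at 7.15.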

How the results depend on the processing

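Over 27 alternatives 0 oxidative phosphorylation genes were called by limma in any of the 3 comparisons, and 0 by the F-test over the 26 that allow it. The smallest adjusted p of a named gene under any alternative was 0.0817. Of 42 named differences 36 kept their direction in every alternative run on them. The change of probe set was not among these, as it was run on the list and not on single genes. Some that kept their direction had another probe set of the opposite sign, as did Cox4i1, Cox6a1 and Ndufb5 for deficient against supplemented. With the Gapdh ratio as a covariate Atp5pf (0.0036), Sdha (0.087) and Cs (0.035) reversed for deficient against supplemented, and Cs (-0.11) and Hspd1 (0.16) for supplemented against standard. With the beta-actin ratio Sdha came to 0.0029. Centring arrays on their median reversed Uqcrfs1 (0.014) and Sdha (0.13) for deficient against supplemented. Hspd1 was at 0.011 without supplemented array 5 and 0.043 without supplemented 5, standard 10 and deficient 13 together. Centring on medians also moved the members' median to -0.28 (supplemented against standard) and 0.34 (deficient against supplemented). The cause was not tested. Probe sets called in the whole table, 0, 0 and 1 in the main setting, were 1 with no filter for deficient against standard. For supplemented against standard they were 1 without trend, 1 with array weights, and 0 to 2 with 1 array left out. For deficient against supplemented they were 2 with no filter and 0 with values as deposited, a pseudocount, the stricter filter, only the 2 diets, either covariate, or the 3 arrays left out, and 0 to 4 with 1 array left out. No paired analysis was possible because array numbers ran on from diet to diet and no number was shared. No detection calls were at hand, so signal over background is unknown for dim probe sets.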

Other observations

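The antioxidant enzymes that deal with the by-products of respiration were measured by 10 genes, and limma called 0 of them in each of the 3 comparisons. For deficient against standard 4 of 10 were higher, with a median of -0.02 on the log2 scale, and the gene with the smallest p was Gpx1, a glutathione peroxidase, at -0.13 ± 0.10 (SE; limma adjusted p = 0.999), or -0.08 without standard array 8. For supplemented against standard 4 of 10 were higher (median -0.10), and Prdx3, the mitochondrial peroxiredoxin, was at 0.37 ± 0.18 (SE; limma adjusted p = 0.547), or 0.17 with the Gapdh ratio and 0.19 with the beta-actin ratio as a covariate. For deficient against supplemented 5 of 10 were higher (median 0.02), and Gsr, glutathione reductase, was at -0.60 ± 0.27 (SE; limma adjusted p = 0.373), or -0.17 with the Gapdh ratio and -0.39 with the beta-actin ratio as a covariate.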
